A study of Mus musculus with 12 samples.

Results

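DAPT, a small-molecule inhibitor of γ-secretase, was compared with vehicle (DMSO) in cultured hippocampal neurons that received PBS in place of soluble ErbB4 (sErbB4). The cultures came from WT mice at postnatal day 4 and were kept for 8 d, after which DAPT was given at 20 µM. Members were taken by their treatment label alone, which gave 6 of the 12 libraries of the experiment, 3 with vehicle and 3 with DAPT. All 6 were of the same genotype, so the drug was the labelled difference between them. The 3 libraries of a condition were described as platings from several mice and litters. How mice and litters were divided among the platings was not said. The length of the DAPT treatment is described as overnight in one place of the study and as a full day in another. Platings are the replicates here, and the culture is a mixed one, so a lower level in bulk RNA can mean fewer cells of a type or less RNA per cell, which cannot be told apart.

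γ-Secretase is an intramembrane protease built from several membrane proteins, among them nicastrin, Aph1 and Pen-2. It releases the intracellular domains (ICDs) of many Type I membrane proteins after their ectodomain has been shed. The ICD of a Notch receptor joins the DNA-binding protein RBPJ and switches on repressor genes of the Hes and Hey families, which keep neural progenitors from differentiating, and the ICD of Type III Nrg1 carries nuclear back signaling. The comparison asks which transcripts depended on the protease under the basal conditions of the culture, before any ligand was added.

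The 6 libraries held 36518802 to 51864356 estimated counts, of which 18697788 to 27509520 fell on loci with a gene name, and 16480 to 17163 named genes were detected in each. Rn45s, the ribosomal RNA precursor, took 41.43 to 44.38% of the named counts with vehicle and 31.41 to 44.61% with DAPT. On the first principal component, which held 32% of the variance, the vehicle libraries lay between -41.6 and -17.03 and the DAPT libraries between 25.24 and 30.7. On the second (21.1%), vehicle replicates 2 and 3 stood apart from each other at -34.93 and 38.33. Levels below are counts per 1000000 named counts after TMM scaling (CPM), and differences are log2 fold changes (log2 FC) of DAPT minus vehicle. Genes are called lower or higher where edgeR's quasi-likelihood test gave a p under 0.05 after Benjamini-Hochberg adjustment over all genes tested and the log2 FC was over 0.32 in size, which is the fold limit.

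The cultures are labelled as neuronal, and pan-neuronal markers were present, with a summed level of 1863 to 1928 CPM in the vehicle and 2138 to 2225 CPM in the DAPT libraries. Glial transcripts were abundant beside them. The summed astrocyte markers were at 18970.0 to 20810.0 CPM with vehicle and 19160.0 to 20730.0 CPM with DAPT, those of oligodendrocyte precursors at 1267 to 1304 and 791 to 828 CPM, and those of microglia at 278 to 311 and 288 to 297 CPM. Endothelial markers were near the floor, with sums of 13.9 to 17.8 and 15.9 to 17.0 CPM. The sums were higher with DAPT and did not overlap for the pan-neuronal, pyramidal and mossy cell, dentate granule cell and Cajal-Retzius lists. They were lower without overlap for the immature neuron list, at 2298 to 2396 and 1864 to 1995 CPM, and for the radial glia, oligodendrocyte precursor and pericyte lists. Single abundant genes weighed heavily in the first of these sums. Means with vehicle and DAPT were 1730.5 and 1293.2 CPM for Tubb2b (immature neuron), 2859.5 and 748.4 CPM for Fabp7 (radial glia) and 706.6 and 281.8 CPM for Olig1 (oligodendrocyte precursor). The median log2 FCs of these lists were -0.01, -0.18 and -0.10, so the sums do not describe every member. The astrocyte, GABAergic interneuron, mature oligodendrocyte, microglia, endothelial and ependymal sums overlapped.

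**Figure D1:**
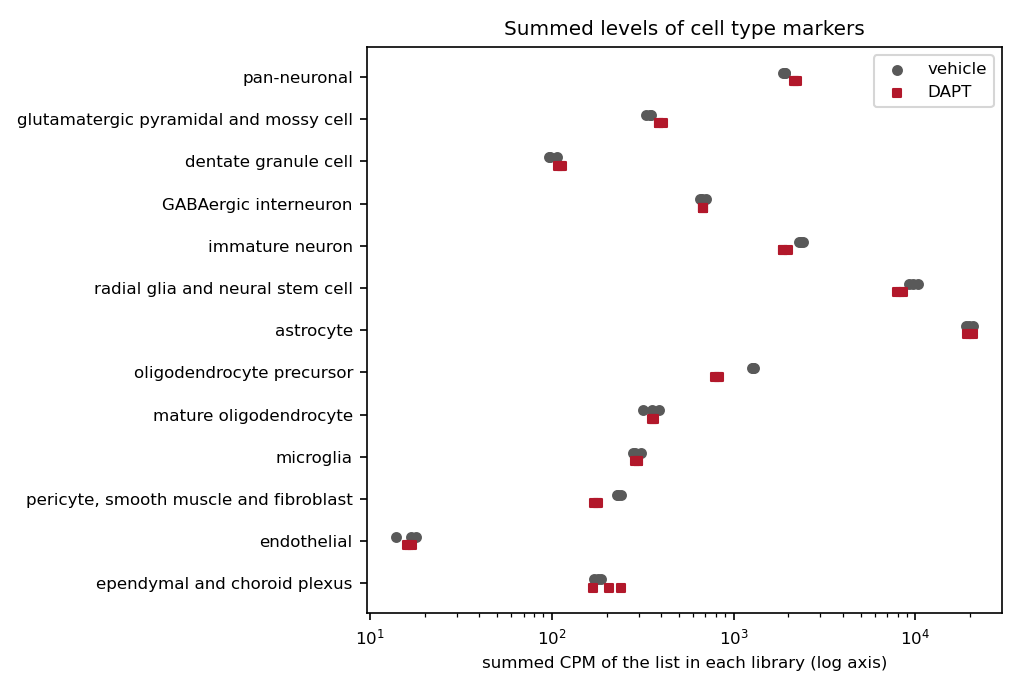
Summed CPM of the cell type marker lists (x axis, log scale) in each of the 3 vehicle (circles) and 3 DAPT (squares) libraries, with one row per list. The oligodendrocyte precursor sums lie between 1267 and 1304 CPM with vehicle and between 791 and 828 CPM with DAPT, and the astrocyte sums overlap. Olig1 alone has means of 706.6 and 281.8 CPM in the precursor sums.

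Inhibition of γ-secretase changed a broad set of transcripts, with more of them lower than higher. Of 15656 genes tested, 1813 were called (11.6%), of which 1083 were lower in DAPT (6.92%) and 730 higher (4.66%). The count of each list below is to be read beside these shares. The median log2 FC over all genes tested was 0.01, and the median size among called genes was 0.49 on the log2 scale. Large changes were mostly falls, since 208 genes were more than 2-fold lower and 63 more than 2-fold higher. The vehicle and DAPT libraries did not overlap for 6443 of the genes tested (41.2%) and for 1787 of the 1813 called genes. Separate groups alone therefore say little about a gene. Protein-coding genes made up 1048 of the lower and 687 of the higher genes. Among the long noncoding RNAs, 31 of 685 were higher and 19 lower.

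**Figure D2:**
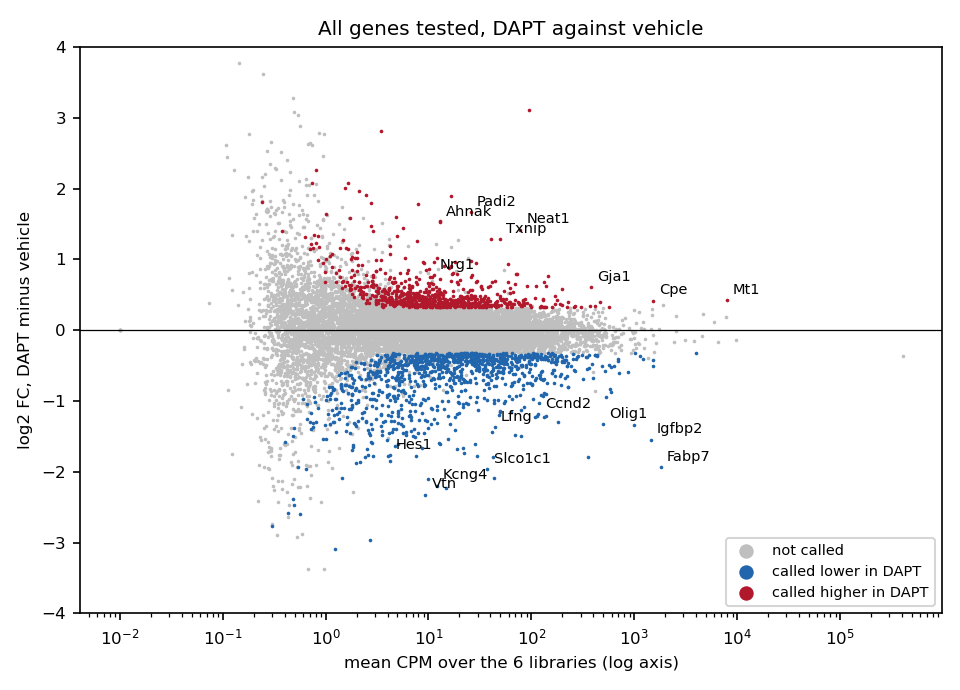
Log2 FC of DAPT minus vehicle (y axis) against the mean CPM over the 6 libraries (x axis, log scale) for each gene tested, with called genes in blue (lower) and red (higher). Named genes such as Fabp7, Igfbp2 and Olig1 lie below -1 at high levels, while Mt1 and Cpe lie above 0, and 101 genes of low level, 20 of them called, fall outside the y range of 4 in either direction (means under 0.01 CPM are drawn at 0.01).

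Lfng, Hes1 and Hes5, which Notch induces, fell. Lfng encodes the Fringe glycosyltransferase that modifies Notch receptors and is itself a Notch-induced gene. It stood at 63.3, 63.5 and 63.3 CPM in the vehicle libraries and at 24.1, 25.7 and 24.0 CPM in the DAPT libraries (log2 FC -1.37, SE 0.07, adjusted p = 1.1e-07, edgeR). The vehicle values were almost equal and none of the DAPT values came near them. Hes1 and Hes5, the repressors that Notch induces directly, were low in these cultures and fell further. Hes1 was at 7.02, 6.38 and 6.02 CPM with vehicle and 1.78, 1.97 and 1.95 CPM with DAPT (log2 FC -1.76, SE 0.13, adjusted p = 3e-06, edgeR). Hes5 was at 4.66, 4.21 and 3.13 and 1.03, 1.30 and 1.23 CPM (log2 FC -1.76, SE 0.30, adjusted p = 0.0013, edgeR). For both genes each DAPT library was below each vehicle library, though 41.2% of all genes tested had no overlap between the groups. Heyl, another repressor of the family, was close to 0 in both groups, at 0.340, 0.726 and 0.535 CPM with vehicle and 0, 0.0790 and 0.127 CPM with DAPT, so its call (adjusted p = 0.013, edgeR) comes with no useful fold. It was lost without vehicle replicate 2 (adjusted p = 0.059, edgeR) and under the fold limit by limma on log2(CPM + 2).

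The promoters of Lfng and Hes5 are shown because they hold the letters GTGGGAA, which RBPJ binds. The letters were searched on both strands and are in capitals. Hes1 and Heyl were tried too, after the values had been seen, and gave no promoter to print. A gene gives none if it has no promoter entry of the set length or none with the letters. Which of these applied was not recorded, so the letters are not shown to be absent from Hes1 or Heyl. Each stretch runs from 250 bases before to 20 bases after the start site of its promoter entry in GRCm38.p6, 5′ to 3′ along the gene. The Lfng promoter lies at chr5:140607091-140607360 on the plus strand and holds the letters once, with the first base at position -109 from the start site. The Hes5 promoter, which was added after the values had been seen, lies at chr4:154960673-154960942 on the plus strand and holds them 2 times, at positions -226 and -83 and in opposite orientations. The RefSeq span of Hes5 begins at chr4:154960626, before this stretch, so these positions count from a start site inside the span.
Lfng: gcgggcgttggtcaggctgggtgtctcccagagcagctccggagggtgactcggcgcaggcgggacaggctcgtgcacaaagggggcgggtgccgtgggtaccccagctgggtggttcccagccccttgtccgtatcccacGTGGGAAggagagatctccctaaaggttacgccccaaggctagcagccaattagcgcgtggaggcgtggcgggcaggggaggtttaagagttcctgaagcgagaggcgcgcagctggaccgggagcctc
Hes5: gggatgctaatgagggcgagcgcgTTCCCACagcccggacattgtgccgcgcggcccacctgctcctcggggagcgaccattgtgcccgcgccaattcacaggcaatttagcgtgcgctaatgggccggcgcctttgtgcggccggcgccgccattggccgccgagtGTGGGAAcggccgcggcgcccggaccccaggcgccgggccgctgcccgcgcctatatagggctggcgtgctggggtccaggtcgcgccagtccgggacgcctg
Shares of promoters, here and below, were counted on the whole promoter sequences, of which the printed stretches are the 5′ part. Of 24 promoters of the Notch target list, 3 held the letters (12.5%), against 6.33% of the 15140 promoters of all genes tested, 6.44% of those of genes called lower and 7.75% of those called higher. None of the 4 receptor promoters and none of the 10 ligand promoters held them.

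The receptors did not move together. Notch3 was at 8.79, 9.17 and 9.63 CPM with vehicle and 4.00, 4.31 and 4.19 CPM with DAPT (log2 FC -1.14, SE 0.09, adjusted p = 4.1e-06, edgeR). Notch1 fell by less, from 38.0, 35.9 and 40.8 CPM to 28.6, 28.0 and 26.2 CPM (log2 FC -0.47, SE 0.10, adjusted p = 0.0063, edgeR). Notch2 went the other way, at 38.0, 37.3 and 41.8 CPM with vehicle and 52.8, 51.7 and 49.5 CPM with DAPT (log2 FC 0.39, SE 0.12, adjusted p = 0.035, edgeR). Each of these receptors had separate vehicle and DAPT values, as had Notch4 and 41.2% of all genes tested. The Notch2 call was the least secure of the receptor calls. It was lost on leaving out vehicle replicate 1 or 2 or any of the 3 DAPT replicates (adjusted p of 0.062 to 0.11, edgeR). Notch4, at 0.883, 0.939 and 1.00 and 0.567, 0.871 and 0.557 CPM, had a log2 FC of -0.53 (adjusted p = 0.2, edgeR) and was not called. Among the ligands, Jag1 fell from 10.1, 8.85 and 8.69 CPM to 5.49, 4.48 and 4.63 CPM (log2 FC -0.92, SE 0.10, adjusted p = 3.8e-05, edgeR). Dll1, at 5.10, 4.94 and 5.19 CPM with vehicle and 3.90, 4.58 and 3.62 CPM with DAPT, was just inside the threshold (log2 FC -0.34, SE 0.11, adjusted p = 0.048, edgeR) and left it without any 1 of the libraries except DAPT replicate 2, and with the replicate number as a block (adjusted p = 0.062, edgeR). Dll3 (-0.40 (SE 0.14), adjusted p = 0.062, edgeR) and Jag2 (0.23 (SE 0.16), adjusted p = 0.35, edgeR) were not called, although Dll3 was with the replicate block in a fit of only the 6 libraries (adjusted p = 0.029, edgeR).

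Over the 27 targets and modifiers of Notch signaling tested, 5 were called lower and 2 higher, with a median log2 FC of -0.02. These were 18.5% and 7.41% of the list, against 6.92% and 4.66% of all genes tested, so the share of higher members was near that of all genes. Dtx4, a ubiquitin ligase of the Deltex family, was the fifth lower member, at 81.9, 77.0 and 74.8 CPM with vehicle and 61.4, 60.2 and 59.0 CPM with DAPT (log2 FC -0.37, SE 0.06, adjusted p = 0.00058, edgeR), and it was under the fold limit by limma on log2(CPM + 2). Nrarp, a feedback inhibitor that is often read as a Notch target, was at 15.6, 16.5 and 15.7 and 13.1, 14.6 and 12.1 CPM and was not called (log2 FC -0.27, SE 0.09, adjusted p = 0.053, edgeR), except without DAPT replicate 2 (adjusted p = 0.03, edgeR). The higher members were Maml3, a coactivator of the Notch ICD (0.39 (SE 0.08), under the fold limit by limma), and Id4. Id4 encodes an inhibitor of basic helix-loop-helix factors that is usually placed under BMP signaling, and it was at 46.4, 47.1 and 42.5 CPM with vehicle and 73.5, 70.8 and 73.5 CPM with DAPT (log2 FC 0.68, SE 0.07, adjusted p = 3.6e-05, edgeR). Of 26 proneural and early neuronal factors, 4 were called higher and 2 lower (median -0.04), and 2 were higher without vehicle replicate 1.

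Genes of mitosis fell as a block. All 30 members of the mitosis list were called lower, against 6.92% of all genes tested, with log2 FCs of -2.09 to -0.50 and a median of -1.29. Their summed level was 215 to 236 CPM in the vehicle and 87.7 to 93.7 CPM in the DAPT libraries. Ube2c, the ubiquitin-conjugating enzyme of the anaphase-promoting complex, was at 19.6, 20.7 and 17.6 CPM with vehicle and 6.56, 5.70 and 6.69 CPM with DAPT (log2 FC -1.60, SE 0.10, adjusted p = 9.1e-07, edgeR). Ccnb2, a mitotic B-type cyclin, was at 6.98, 9.02 and 8.92 and 2.98, 2.98 and 3.08 CPM (log2 FC -1.45, SE 0.13, adjusted p = 1.1e-05, edgeR). Tpx2, which nucleates spindle microtubules, was at 10.9, 11.7 and 9.98 and 4.36, 3.68 and 3.42 CPM (log2 FC -1.51, SE 0.12, adjusted p = 4.2e-06, edgeR). The groups were separate for each member of the list, against 41.2% of all genes tested. Ccna2 (-1.49 (SE 0.12)), Ccnb1 (-1.45 (SE 0.12)) and the midzone protein gene Prc1 (-1.38 (SE 0.09)) fell by similar amounts, and so did Pbk, a mitotic kinase (-1.78 (SE 0.17)).

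The letters TTTGAA or TTCGAA are those of the cell cycle homology region (CHR), through which the DREAM and MuvB complexes silence mitotic genes outside the late cell cycle. Searched on both strands of the whole promoter sequences, they were in 21 of the 26 promoters of the mitosis list (80.8%), against 13.6% of all promoters, 18.8% of those called lower and 12.5% of those called higher. The promoters of Ube2c (chr2:164769679-164769948, plus strand) and Ccnb2 (chr9:70421535-70421804, minus strand) are printed with the letters in capitals. They were picked by size of change among mitosis genes whose promoter holds the letters, so a match in them was fixed by the choice. The match of Ube2c begins at position -29 from the start site and those of Ccnb2 begin at positions -167 and 5.
Ube2c: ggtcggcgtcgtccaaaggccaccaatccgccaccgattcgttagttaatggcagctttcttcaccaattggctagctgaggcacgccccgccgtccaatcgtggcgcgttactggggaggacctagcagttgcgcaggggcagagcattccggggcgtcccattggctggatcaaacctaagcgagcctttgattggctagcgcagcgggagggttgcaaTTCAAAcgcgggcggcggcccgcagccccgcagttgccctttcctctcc
Ccnb2: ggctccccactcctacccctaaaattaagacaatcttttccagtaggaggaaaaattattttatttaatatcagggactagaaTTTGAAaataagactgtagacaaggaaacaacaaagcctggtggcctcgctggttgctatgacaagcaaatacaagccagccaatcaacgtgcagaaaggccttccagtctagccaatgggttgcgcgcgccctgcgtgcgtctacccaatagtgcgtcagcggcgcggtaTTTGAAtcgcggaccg
The letters GGCGGGAA or TTTGGCGC, bound by E2F factors at the start of S phase, were in 0% of the mitosis promoters and in 31% of the 29 promoters of the DNA replication list, against 4.52% of all promoters, 4.63% of those called lower and 2.68% of those called higher. A match of letters is a description of the window and not of binding.

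**Figure D3:**
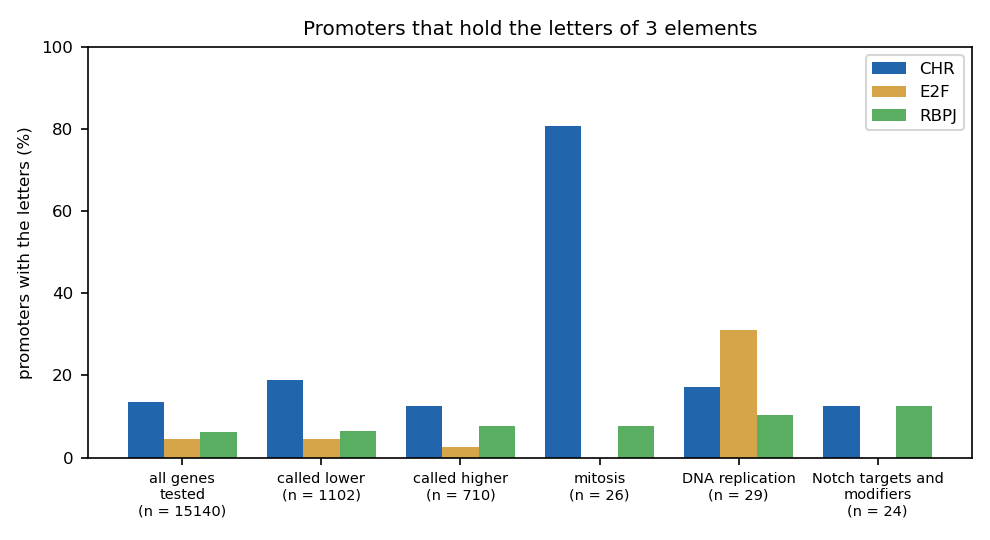
Percentage of promoters (y axis) that hold the letters of the CHR, E2F and RBPJ elements, for all genes tested, called genes and 3 gene lists (x axis, n gives promoters). The CHR letters stand out in the mitosis list at 80.8% and the E2F letters in the DNA replication list at 31%, against 13.6% and 4.52% of all promoters.

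The replication machinery moved the same way with smaller steps. Of 29 DNA replication genes, 16 were called lower and 0 higher, and all 29 had a negative log2 FC (median -0.43). Rrm2, the regulated subunit of ribonucleotide reductase, was at 21.8, 24.2 and 23.6 CPM with vehicle and 8.67, 10.1 and 8.91 CPM with DAPT (log2 FC -1.33, SE 0.07, adjusted p = 3.5e-07, edgeR). Its partner Rrm1 fell less, from 16.8, 16.7 and 17.5 to 12.4, 11.6 and 11.3 CPM (log2 FC -0.53, SE 0.06, adjusted p = 7.5e-05, edgeR). The helicase subunit genes Mcm2 (-0.72 (SE 0.11)) and Mcm5 (-1.11 (SE 0.16)) and the replication-coupled methylation factor Uhrf1 (-1.31 (SE 0.16)) were also called lower.

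Of the G1 regulators, the D-type cyclin genes Ccnd1 and Ccnd2 fell most. Ccnd1 was at 99.4, 103 and 101 CPM with vehicle and 38.1, 35.4 and 35.2 CPM with DAPT (log2 FC -1.48, SE 0.09, adjusted p = 9.7e-07, edgeR). Ccnd2 was at 171, 157 and 159 and 71.0, 71.4 and 71.7 CPM (log2 FC -1.19, SE 0.08, adjusted p = 2.2e-06, edgeR), while the log2 FC was -0.42 (SE 0.05) for Ccnd3, -0.50 (SE 0.10) for the inhibitor gene Cdkn2c and -0.48 (SE 0.09) for the kinase gene Cdk2. The 3 cyclin genes had no overlap between the groups, as had 41.2% of all genes tested. The antiproliferative gene Btg1 was the only member of this list of 26 called higher (0.43 (SE 0.07)), and 6 members were called lower.

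Most genes of the list that reports on ERK signaling fell. Of 14 ERK feedback genes and Etv factors, 10 were called lower and 0 higher (median -0.51), against 6.92% and 4.66% of all genes tested. Ccnd1 is a member of this list too, and without it 9 of 13 were lower. Dusp6, a phosphatase that inactivates ERK, was at 59.5, 63.9 and 59.3 CPM with vehicle and 22.5, 22.7 and 22.4 CPM with DAPT (log2 FC -1.43, SE 0.06, adjusted p = 2.9e-08, edgeR). Etv4, an ETS transcription factor downstream of growth factor receptors, was at 45.2, 45.6 and 48.0 and 13.6, 13.7 and 13.2 CPM (log2 FC -1.78, SE 0.07, adjusted p = 2.6e-08, edgeR). Both had DAPT libraries within a narrow band far under the vehicle values. Etv5 (-0.77 (SE 0.06)), Spry1 (-1.05 (SE 0.06)) and Spry4 (-0.76 (SE 0.08)) were lower as well. Ligands and receptors of the ErbB family went both ways, with 2 of 10 called lower and 2 higher (median 0.004). Hbegf fell from 47.7, 51.9 and 48.6 CPM to 28.9, 27.3 and 27.9 CPM (log2 FC -0.82, SE 0.09, adjusted p = 7.6e-05, edgeR) and Egfr had a log2 FC of -0.41 (SE 0.05), while Nrg1 was among the higher members (0.78 (SE 0.09)).

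**Figure D4:**
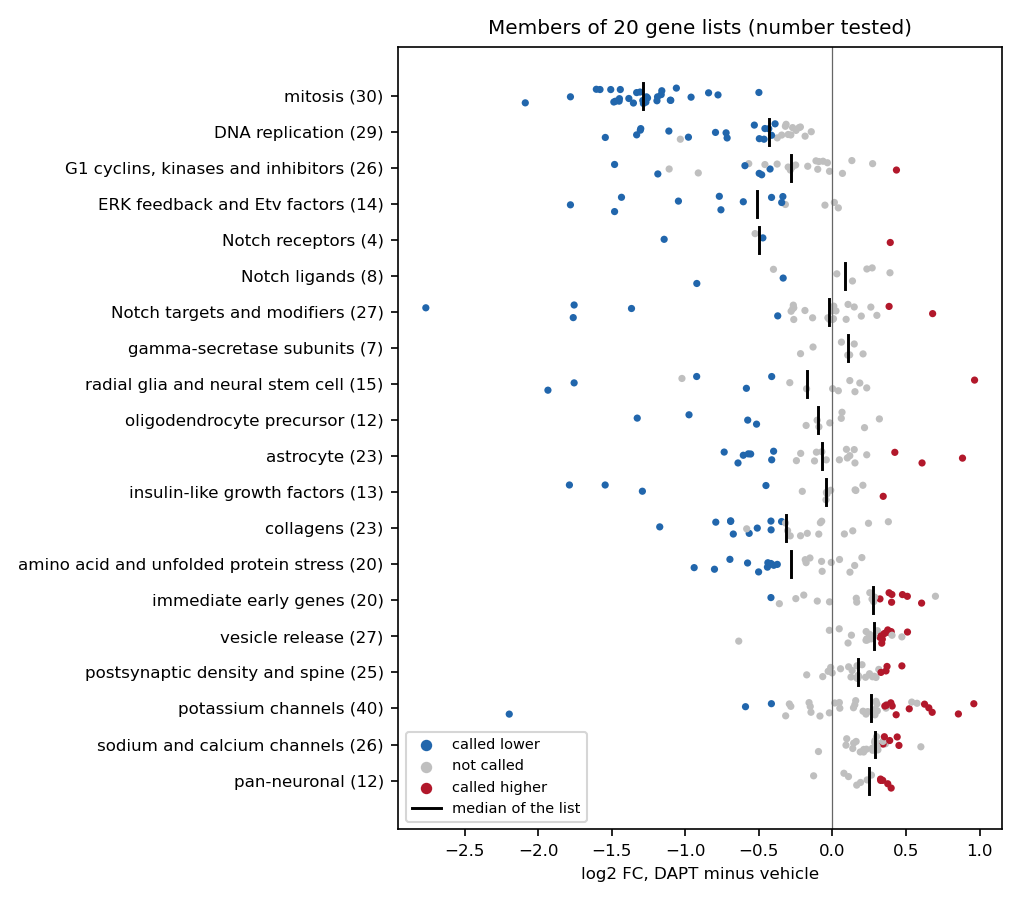
Log2 FC of DAPT minus vehicle (x axis) for each tested member of 20 gene lists (rows, number tested in brackets), coloured by call, with a black bar at the median of the list. All 30 mitosis genes lie below 0 and are called lower, while most vesicle release, sodium and calcium channel and pan-neuronal genes lie above 0.

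Radial glia and astrocyte genes went both ways. Fabp7, the brain-type fatty acid binding protein, fell most among the abundant genes, from 3050.1, 2804 and 2725 CPM to 788, 692 and 765 CPM (log2 FC -1.93, SE 0.06, adjusted p = 3.4e-09, edgeR). The filament gene Nes was at 112, 113 and 115 CPM with vehicle and 77.8, 75.5 and 73.1 CPM with DAPT (log2 FC -0.58, SE 0.03, adjusted p = 5e-07, edgeR). Not all genes of the radial glia list followed. Prom1, a membrane protein of neural stem cells and ciliated cells, rose from 12.9, 12.3 and 11.6 CPM to 23.9, 23.2 and 24.7 CPM (log2 FC 0.97, SE 0.06, adjusted p = 5.7e-07, edgeR). In all, 5 of 15 members were called lower and 1 higher (median -0.18). These were 33.3% and 6.67% of the list, against 6.92% and 4.66% of all genes tested.

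Of 12 oligodendrocyte precursor genes, 4 were called lower (33.3%, against 6.92% of all genes tested) and 0 higher (median -0.10). Olig1, a lineage transcription factor, was at 699, 708 and 713 CPM with vehicle and 284, 292 and 269 CPM with DAPT (log2 FC -1.33, SE 0.05, adjusted p = 1.7e-08, edgeR). Olig2 was at 137, 135 and 137 and 69.9, 71.4 and 67.4 CPM (log2 FC -0.97, SE 0.03, adjusted p = 9.7e-09, edgeR). The receptor gene Pdgfra (-0.52 (SE 0.05)) and the proteoglycan gene Cspg4 (-0.58 (SE 0.06)), which pericytes also carry, fell by less, while the other 8 members were not called. Among mature oligodendrocyte genes, 1 of 11 was called lower (median 0.01), a share of 9.09% that was near the 6.92% of all genes tested.

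Astrocyte genes went both ways, with 7 of 23 called lower and 3 higher (median -0.07). These were 30.4% and 13.0% of the list, against 6.92% and 4.66% of all genes tested. Both gap junction genes of the list rose. Gja1, which encodes connexin 43, was at 317, 290.1 and 285 CPM with vehicle and 467, 439.5 and 454 CPM with DAPT (log2 FC 0.61, SE 0.05, adjusted p = 1.2e-05, edgeR), and Gjb6, which encodes connexin 30, had a log2 FC of 0.88 (SE 0.14). Among the lower members, Slc4a4, a sodium bicarbonate cotransporter, was at 275, 252 and 276 and 177, 166 and 171 CPM (log2 FC -0.64, SE 0.05, adjusted p = 7.3e-06, edgeR), and Fgfr3 (-0.74 (SE 0.06)), the folate enzyme gene Aldh1l1 (-0.61 (SE 0.05)) and the acyl-CoA synthetase gene Acsbg1 (-0.57 (SE 0.05)) were lower.

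**Figure D5:**
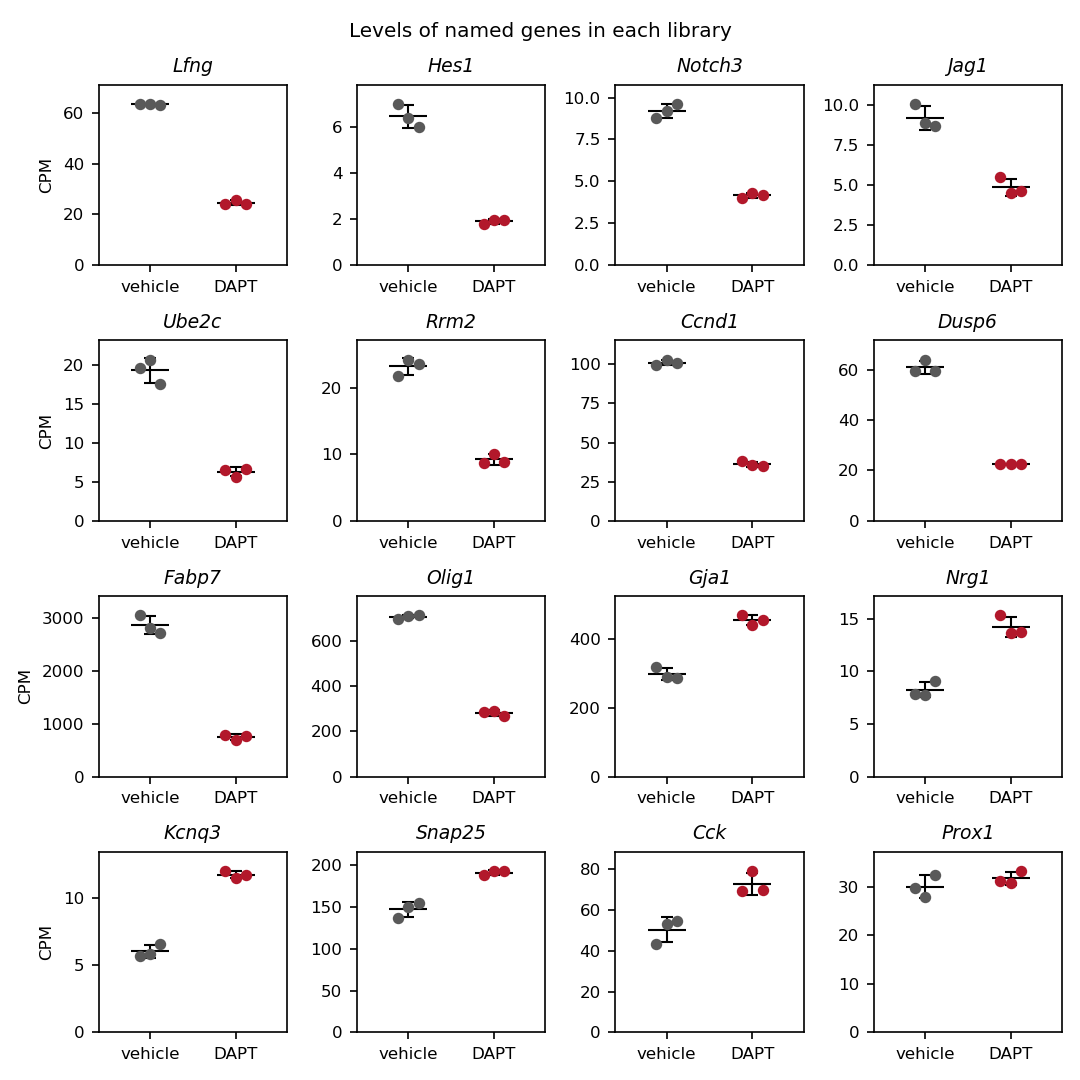
CPM (y axis, from 0) of 16 genes in each vehicle and DAPT library (points), with horizontal bars for the mean and error bars for the SD of 3 libraries. The groups are separate for each gene but Prox1, where the highest vehicle value is 32.5 CPM and the lowest DAPT value 30.8 CPM. Groups are separate for 41.2% of all genes tested.

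Several insulin-like growth factor binding protein and matrix genes were lower. Igfbp2, which binds insulin-like growth factors, was at 2137, 2201 and 2102 CPM with vehicle and 742, 754 and 712 CPM with DAPT (log2 FC -1.54, SE 0.04, adjusted p = 1.9e-09, edgeR). Igfbp3 fell from 543, 579 and 535 to 170.3, 154 and 155 CPM (log2 FC -1.79, SE 0.07, adjusted p = 1.2e-08, edgeR), and Igfbp4 from 257, 258 and 249 to 105, 107 and 99.3 CPM (log2 FC -1.29, SE 0.07, adjusted p = 3.5e-07, edgeR). With Igfbp5 (-0.45 (SE 0.06)) these were the 4 lower members of 13 growth factor system genes (median -0.04), of which the receptor gene Igf1r was the 1 called higher (0.34 (SE 0.09)), though not without vehicle replicate 2 or DAPT replicate 1.

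Of 23 collagen genes, 10 were called lower (43.5%, against 6.92% of all genes tested) and 0 higher (median -0.32). Col4a1, a chain of basement membrane collagen, was at 96.5, 90.5 and 92.8 CPM with vehicle and 60.1, 58.5 and 54.7 CPM with DAPT (log2 FC -0.69, SE 0.04, adjusted p = 8.9e-07, edgeR), and Col16a1 at 26.3, 27.5 and 28.6 and 12.8, 12.5 and 11.4 CPM (log2 FC -1.17, SE 0.11, adjusted p = 1.8e-05, edgeR). Of 39 matrix glycoprotein and proteoglycan genes, 13 were lower and 3 higher (median -0.15), and their sums overlapped. Vtn, the adhesion protein vitronectin (GRCm38.p6 chr11:78499120-78502325), had the largest fall of all genes named by rank, from 15.7, 14.9 and 16.2 CPM to 2.40, 3.57 and 3.37 CPM (log2 FC -2.32, SE 0.12, adjusted p = 3.1e-07, edgeR). Pericyte, smooth muscle and fibroblast markers also moved, beside the matrix genes, with 8 of 13 lower and 2 higher, and sums of 229 to 239.5 CPM with vehicle and 170.5 to 180.4 CPM with DAPT. Vtn, Col1a1, Cspg4, Pdgfra and Notch3, all lower, are members of that list too. Dcn, which is in both the matrix and the pericyte list, was among the higher members (log2 FC 0.68, SE 0.07, adjusted p = 5.7e-05, edgeR). The part of the pericyte list in the fall of matrix genes was not tested.

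Thyroid hormone handling was touched at 2 of 10 genes. Slco1c1, a thyroxine transporter, fell from 59.5, 59.2 and 59.2 CPM to 14.6, 15.8 and 15.3 CPM (log2 FC -1.96, SE 0.05, adjusted p = 1.9e-09, edgeR). Dio2, the deiodinase that makes the active hormone, fell from 70.7, 66.3 and 66.8 to 30.1, 30.6 and 31.3 CPM (log2 FC -1.15, SE 0.05, adjusted p = 2.4e-08, edgeR). Both had tight and separate groups.

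Of the 20 genes of amino acid and unfolded protein stress, 10 were called lower and 0 higher (median -0.28). Slc7a5, the light chain of a large neutral amino acid transporter, was at 297, 282 and 293 CPM with vehicle and 168, 173 and 159.7 CPM with DAPT (log2 FC -0.80, SE 0.09, adjusted p = 5e-05, edgeR), and its heavy chain Slc3a2 had a log2 FC of -0.58 (SE 0.05). The serine synthesis genes Psat1 (-0.50 (SE 0.04)) and Phgdh (-0.44 (SE 0.06)) and the mitochondrial folate enzyme gene Mthfd2 (-0.70 (SE 0.06)) fell with them. Of 18 hypoxia and glycolysis genes, 6 were lower and 1 higher, among them Eno1 (-0.60 (SE 0.05)), Hk2 (-0.64 (SE 0.06)) and Vegfa (-0.49 (SE 0.07)). Among 20 genes of cholesterol synthesis 0 were called, with log2 FCs of -0.25 to 0.19, and among 14 apoptosis genes only Bak1 was (-0.42 (SE 0.07)).

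Genes of vesicle release rose by small steps, and neuronal lists were not alike. Of 27 genes of vesicle release, 10 were called higher and 0 lower, against 4.66% and 6.92% of all genes, and 25 of 27 had a positive log2 FC (median 0.28). Without vehicle replicate 1 the higher count was 5. Snap25, a SNARE protein of release, was at 137, 149.6 and 155 CPM with vehicle and 188, 193 and 192 CPM with DAPT (log2 FC 0.38, SE 0.06, adjusted p = 0.00047, edgeR). Syt1, the calcium sensor of release, was at 57.7, 64.0 and 68.2 and 83.5, 83.3 and 83.4 CPM (log2 FC 0.40, SE 0.09, adjusted p = 0.0053, edgeR), and Sv2b at 26.5, 27.2 and 26.9 and 35.1, 36.6 and 34.6 CPM (log2 FC 0.40, SE 0.05, adjusted p = 0.00012, edgeR). The DAPT libraries were above each vehicle library for these 3 genes. Of 12 pan-neuronal markers 5 were higher and 0 lower (median 0.25), and their part in the rise of release genes was not tested. Without vehicle replicate 1, 2 of the pan-neuronal markers were higher. Markers of immature neurons did not follow, with 0 of 11 higher and 1 lower (median -0.01), a lower share of 9.09% that was near that of all genes. The lower one was the tubulin gene Tubb2b, at 1724, 1786 and 1682 CPM with vehicle and 1375, 1252 and 1252 CPM with DAPT (log2 FC -0.42, SE 0.09, adjusted p = 0.005, edgeR), and it was not called by limma at either pseudocount. Of the lists for types of neurons, 1 of 10 dentate granule cell genes (Synpr, 0.34 (SE 0.04)), 1 of 10 pyramidal and mossy cell genes (Neurod6, 0.45 (SE 0.09)) and 1 of 16 GABAergic interneuron genes (Sst) were higher, and 1 of the GABAergic genes was lower. The higher shares were 10%, 10% and 6.25%, against 4.66% of all genes tested. The higher counts were 0 (without vehicle replicate 1) to 2 (without DAPT replicate 1) for the granule cell list, 2 for the pyramidal list without vehicle replicate 3 or DAPT replicate 1 or 3, and 2 (without DAPT replicate 2) to 3 (without vehicle replicate 3) for the GABAergic list. Of 25 postsynaptic density genes, 4 were called higher, including Camk2a (0.36 (SE 0.05)) and Dlgap2 (0.47 (SE 0.09)), and 7 were without vehicle replicate 3.

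Potassium channel genes went in both directions. Of 40 potassium channel genes, 11 were called higher and 3 lower (median 0.26). These were 27.5% and 7.5% of the list, against 4.66% and 6.92% of all genes tested. Kcnq3, a subunit of the M-current channel, rose from 5.70, 5.81 and 6.54 CPM to 12.0, 11.5 and 11.7 CPM (log2 FC 0.96, SE 0.13, adjusted p = 0.00022, edgeR). Kcna4, an A-type channel, rose from 3.93, 4.85 and 4.69 to 7.92, 7.91 and 8.32 CPM (log2 FC 0.86, SE 0.12, adjusted p = 0.0004, edgeR). Kcnn2 (0.68 (SE 0.10)), Kcnh3 (0.66 (SE 0.09)) and Kcnk2 (0.63 (SE 0.06)) were also higher. The summed level of the list went the other way, from 1642 to 1718 CPM with vehicle to 1355 to 1418 CPM with DAPT, without overlap. It was carried by Kcnj10, an inward rectifier of astrocytes and the most abundant member, which fell from 1087, 1030.1 and 982 CPM to 715, 676 and 667 CPM (log2 FC -0.59, SE 0.07, adjusted p = 6.6e-05, edgeR) and was named after its values had been seen, and Kcnj16, which was too, had a log2 FC of -0.41 (SE 0.07). Kcng4, a silent modifier subunit, had the largest fall of the list, falling from 21.1, 19.6 and 18.4 CPM to 4.28, 4.47 and 4.18 CPM (log2 FC -2.20, SE 0.07, adjusted p = 5.5e-09, edgeR). Of 26 sodium and calcium channel genes 5 were higher and 0 lower, and 25 were positive (median 0.29), with Scn2a at 21.1, 22.3 and 22.2 CPM with vehicle and 29.4, 29.0 and 30.4 CPM with DAPT (log2 FC 0.44, SE 0.04, adjusted p = 2.9e-05, edgeR). The higher count of that list was 2 without vehicle replicate 1 and 9 without vehicle replicate 3.

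Of 17 ionotropic glutamate receptor genes 3 were higher and 1 lower (median 0.02), and of 7 metabotropic ones 1 was higher and 1 lower (median 0.28). The higher ionotropic count was 1 without DAPT replicate 2, and the lower metabotropic count was 2 without vehicle replicate 1 or DAPT replicate 3. Grin2c, an NMDA receptor subunit that astrocytes and cerebellar granule cells carry, fell from 10.1, 10.6 and 10.7 CPM to 3.71, 4.41 and 3.81 CPM (log2 FC -1.40, SE 0.10, adjusted p = 2.3e-06, edgeR), and Grm3, a metabotropic receptor found in astrocytes, from 15.8, 14.4 and 15.6 to 6.04, 6.12 and 6.20 CPM (log2 FC -1.32, SE 0.10, adjusted p = 5.1e-06, edgeR). Gria1, an AMPA receptor subunit, rose from 69.9, 69.1 and 71.7 to 89.0, 87.9 and 92.3 CPM (log2 FC 0.35, SE 0.04, adjusted p = 6.2e-05, edgeR). Of 12 GABA-A receptor subunits, 3 were higher and 1 lower, with log2 FCs of 0.41 (SE 0.05) for Gabra5 and -0.42 (SE 0.08) for Gabrg1.

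Of 20 immediate early genes, which neurons transcribe on activity, 7 were higher and 1 lower (median 0.27), and 4 were higher without DAPT replicate 2. The lower member, Ier2, lost its call without vehicle replicate 1 or 3 or DAPT replicate 1 or 3, and with the replicate block in the fit of 6 libraries. Nr4a3 was at 24.9, 23.9 and 27.6 CPM with vehicle and 38.4, 40.3 and 37.8 CPM with DAPT (log2 FC 0.61, SE 0.08, adjusted p = 0.00033, edgeR), and Nr4a2 had a log2 FC of 0.40 (SE 0.08). Of 18 neuropeptide genes 4 were higher and 3 lower. Sst rose from 132, 144 and 145 CPM to 198, 204 and 185 CPM (log2 FC 0.48, SE 0.06, adjusted p = 0.00015, edgeR) and Cck from 43.5, 53.1 and 54.5 to 69.3, 79.1 and 69.8 CPM (log2 FC 0.53, SE 0.10, adjusted p = 0.0022, edgeR). Pdyn, which encodes the dynorphin precursor, fell from 19.4, 21.2 and 18.2 to 12.5, 12.6 and 13.8 CPM (log2 FC -0.59, SE 0.08, adjusted p = 0.00024, edgeR). Prox1, which specifies dentate granule cells, was at 29.7, 27.9 and 32.5 and 31.2, 30.8 and 33.3 CPM with overlapping groups (log2 FC 0.08, SE 0.06, adjusted p = 0.43, edgeR).

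The protease itself was not called at the RNA level. None of 7 γ-secretase subunit genes passed both thresholds by edgeR, with log2 FCs of -0.22 to 0.21. Ncstn, which encodes nicastrin, was at 67.7, 69.0 and 64.6 CPM with vehicle and 60.2, 64.3 and 59.2 CPM with DAPT (log2 FC -0.13, SE 0.06, adjusted p = 0.11, edgeR). Psen2 had an adjusted p of 0.036 (edgeR) with a log2 FC of 0.15, under the fold limit.

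Of 43 substrates of the protease, 5 were called higher (11.6%) and 8 lower (18.6%), against 4.66% and 6.92% of all genes tested (median 0.07). Without vehicle replicate 1 the higher count was 2, a share near that of all genes. Nrg1 rose from 7.87, 7.80 and 9.08 CPM with vehicle to 15.3, 13.7 and 13.7 CPM with DAPT (log2 FC 0.78, SE 0.09, adjusted p = 5.6e-05, edgeR), and each DAPT library was above each vehicle library. Its receptor gene Erbb4 was at 5.27, 5.70 and 6.28 and 7.02, 6.41 and 7.14 CPM and was not called (log2 FC 0.26, SE 0.14, adjusted p = 0.21, edgeR). App, the amyloid precursor gene, was at 492, 494 and 483 and 531, 529.9 and 500.0 CPM and was not called either (log2 FC 0.09, SE 0.04, adjusted p = 0.096, edgeR). The sorting receptor genes Sorcs1 (-0.84 (SE 0.06)) and Sorcs2 (-0.58 (SE 0.05)) and the reelin receptor gene Vldlr (-0.47 (SE 0.05)) fell. Of the sheddases that cut before γ-secretase, 1 of 6 was called, Bace2 (0.43 (SE 0.08), under the fold limit by limma on log2(CPM + 2)).

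Among called genes that had separate groups and averaged at least 5 CPM, the leading falls by size after Vtn were Tgm1, a transglutaminase (-2.23 (SE 0.09)), Kcng4 and Btbd17 (-2.09 (SE 0.08)), followed by Slco1c1, Fabp7, Cebpd, Igfbp3 and Etv4. Cebpd, a C/EBP transcription factor, was at 80.2, 62.2 and 55.4 CPM with vehicle and 21.8, 18.6 and 17.0 CPM with DAPT, with the widest spread of these (log2 FC -1.79, SE 0.23, adjusted p = 0.00022, edgeR). Eef1akmt2 also ranked among them (log2 FC -2.10, SE 0.68, adjusted p = 0.043, edgeR), but its vehicle values of 21.9, 21.6 and 4.71 CPM were uneven and the third lay next to the DAPT values of 3.37, 4.50 and 3.44 CPM. The call was lost on leaving out any 1 library other than vehicle replicate 3, and with the replicate block over all 12 libraries (adjusted p = 0.071, edgeR), and before sErbB4 its log2 FC was 1.27 and not called.

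The leading rises included Padi2, a peptidylarginine deiminase (GRCm38.p6 chr4:140906336-140952586), at 12.6, 12.5 and 11.8 CPM with vehicle and 40.2, 40.5 and 37.0 CPM with DAPT (log2 FC 1.67, SE 0.04, adjusted p = 1.9e-09, edgeR). Ahnak, a giant scaffold protein, rose from 6.85, 6.09 and 6.79 to 18.6, 18.8 and 19.7 CPM (log2 FC 1.53, SE 0.16, adjusted p = 4.2e-05, edgeR), and Txnip, a thioredoxin-binding protein that glucose induces, from 29.0, 29.3 and 27.0 to 72.0, 67.2 and 69.2 CPM (log2 FC 1.29, SE 0.05, adjusted p = 2.4e-08, edgeR). The groups of all 3 were far apart beside their spread. The long noncoding RNA Neat1, the scaffold of paraspeckles, was at 40.3, 32.4 and 54.7 and 126, 113 and 103 CPM (log2 FC 1.42, SE 0.25, adjusted p = 0.0016, edgeR). Ptgds (1.29 (SE 0.08)), Lgi4 (1.26 (SE 0.07)), Traf1 (1.44 (SE 0.10)) and Prune2 (1.02 (SE 0.11)) were higher too. Among the most abundant called genes, Mt1, a metallothionein, rose from 7244, 6613 and 6245 CPM to 9290.3, 9390.2 and 8362 CPM (log2 FC 0.43, SE 0.07, adjusted p = 0.00094, edgeR), Cpe, which trims neuropeptide precursors, rose (0.42 (SE 0.03)), and the tubulin gene Tubb2a fell (-0.51 (SE 0.08)). The largest fitted rise of any gene above 5 CPM was that of Rpl26, a ribosomal protein gene with near-identical copies in the genome, and it rested on 2 libraries. It was at 34.3, 13.7 and 10.4 CPM with vehicle and 262, 245 and 7.54 CPM with DAPT (log2 FC 3.11, SE 0.93, adjusted p = 0.032, edgeR), and it was named after its values had been seen. The call was lost without vehicle replicate 2 or 3 or DAPT replicate 1 or 2, and with the replicate block (adjusted p = 0.055, edgeR).

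The same drug was also given before sErbB4, and DAPT + sErbB4 against sErbB4 alone shares no library with the comparison above. There 1120 genes were lower with DAPT (7.15%) and 712 higher (4.55%), of which 850 and 419 were called the same way without sErbB4 (70% of the genes called without and 69.3% of those called with it). For some genes that carried the results and kept their calls, the log2 FCs without and with sErbB4 were -1.37 and -1.30 for Lfng, -1.76 and -2.08 for Hes1, and -1.60 and -1.54 for Ube2c. They were -1.93 and -1.86 for Fabp7, -1.33 and -1.36 for Olig1, 0.78 and 0.65 for Nrg1, and 0.96 and 0.79 for Kcnq3. Several neuronal lists had fewer higher members with sErbB4. The higher counts without and with it were 10 and 6 for vesicle release, 7 and 4 for immediate early genes, and 5 and 3 for pan-neuronal markers. With sErbB4, 1 vesicle release gene was lower. Potassium channels went the other way, with 11 and 12 higher. Tested directly, the difference between the DAPT effects with and without sErbB4 was called for 1 gene, Htd2 (0.00639%), by edgeR and for 4 by DESeq2. By edgeR, 565 of the 15656 genes tested had an unadjusted p under 0.05. That is a smaller share than the 0.05 which this limit lets through where nothing differs.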

How the data were processed

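RNA from 12 libraries of WT hippocampal cultures was sequenced by the authors, whose notes name Trimmomatic for trimming, HISAT2 as the aligner, mm10 as the build and StringTie for assembly (versions not given in the sources used here). The authors deposited gene-level estimated counts that carry no scaling between libraries. These were rounded to whole numbers. The 1976 loci without a gene name, 46.96 to 51.85% of the counts of the 6 libraries, were left out. Depth is given in the report, and it limits genes of few counts.

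Counts were filtered with filterByExpr, scaled by TMM and tested with edgeR 4.0.16 in R 4.3.3 (quasi-likelihood F test, a mean for each of the 4 conditions, 12 libraries, 8 residual degrees of freedom). The SE is the log2 FC divided by the root of F. Alternatives used DESeq2 1.42.0, limma 3.58.1 on log2(CPM + 2) or log2(CPM + 0.5), RLE scaling, no filter, other fold limits, only the 6 libraries, the replicate number as a block, Rn45s left out, unnamed loci kept, and each library left out. The scripts were tested on simulated data. Over the 2000 genes of highest mean, same-numbered vehicle and DAPT libraries deviated together (r of 0.238, 0.295 and 0.122), and different-numbered ones had r of -0.314 to 0.0422. The numbers come from the sample titles and were taken as pairs for the block.

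Members, gene lists and the rule for naming genes were chosen with earlier results of these data known. Named were the 12 largest falls and rises with a mean of at least 5 CPM and separate groups, the most abundant called genes, a fixed set of Notch and γ-secretase genes, and up to 6 called members per list. Some genes that this rule names are not reported here. Promoter sequences and gene positions are from RefSeq, GRCm38.p6. Of the 15656 genes tested 11891 had a promoter there.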

Additional observations from a re-analysis of the deposited data

Results flagged for a closer look

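The DAPT effect differed with and without sErbB4 for 1 gene in the test of the difference itself. Htd2 was at 3.11, 2.71 and 3.76 CPM with vehicle and 2.65, 3.39 and 3.28 CPM with DAPT, and it was listed at 0 CPM in all 3 sErbB4 libraries and at a mean of 3.23 CPM with DAPT + sErbB4 (adjusted p of the difference = 0.00156, edgeR quasi-likelihood test). The same single gene was called with the replicate block. DESeq2 called 4 genes, which were Htd2, Cox20, Eln and Zfp791. These names were chosen after the values had been seen.

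Loci without a gene name were outside the comparison. Where they were kept in the library sizes and tests, 185 of the 1956 tested were called between DAPT and vehicle, 136 lower and 49 higher.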

How the results depend on the processing

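With no fold limit 3706 genes were called, 1618 higher and 2088 lower, and with a fold limit of 2 there were 271, 63 higher and 208 lower. Under the other alternatives the counts stayed within 1.5 times of 1813, 730 and 1083, at 1525 to 1784 on leaving out 1 library, and none of the 1813 called genes changed direction. With the replicate number as a block 1750 genes were called over all 12 libraries and 1676 over only the 6, and beyond Dll1, Dll3, Eef1akmt2, Rpl26, Ier2 and the ependymal and nuclear noncoding RNA lists (the latter with 4 higher over only the 6) the block changed no call of a named gene and no list count by over 1.5 times. At the fold limit of 2 the lower counts were 5 for DNA replication, 4 for ERK feedback, 1 for oligodendrocyte precursors and 1 for collagens, and the higher counts were 0 for vesicle release and 0 for potassium channels. With no fold limit, 20 vesicle release genes were higher and 10 Notch targets lower. By limma on log2(CPM + 2), 3 Notch targets were lower. On leaving out 1 library the vesicle release count ranged from 5 (without vehicle replicate 1) to 10. The difference of the DAPT effects was called for 4 genes by DESeq2. Depth limits genes of few counts, and 1336 of the 1813 called genes had a mean of at least 5 CPM.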

Other observations

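Other signaling lists had calls at single members, against 6.92% lower and 4.66% higher among all genes tested. Of 22 BMP and TGF-beta genes, 5 were called higher and 0 lower (median 0.13), and 3 were higher without vehicle replicate 1 or 2 or DAPT replicate 1 or 2. Tgfb3, a ligand, was at 6.48, 7.27 and 6.33 CPM with vehicle and 9.83, 10.3 and 9.31 CPM with DAPT (log2 FC 0.56, SE 0.08, adjusted p = 0.00055, edgeR), and the ligand gene Bmp6 had a log2 FC of 0.44 (SE 0.08). Of 24 Wnt genes, 3 were lower and 0 higher (median -0.15). The ligand gene Wnt7b fell from 57.8, 59.5 and 58.4 CPM to 41.5, 42.2 and 38.5 CPM (log2 FC -0.53, SE 0.04, adjusted p = 7.3e-06, edgeR) and the receptor gene Fzd9 from 22.7, 23.0 and 21.0 to 14.0, 13.4 and 12.3 CPM (log2 FC -0.75, SE 0.10, adjusted p = 0.0002, edgeR). Among 9 Shh pathway genes, the coreceptor gene Boc was lower (-0.47 (SE 0.04)). Of 15 p53 response genes, 5 were lower and 1 higher, with log2 FCs of -0.99 (SE 0.10) for Gtse1, which also belongs to the G2 cell cycle program, -0.45 (SE 0.05) for Ccng1 and 0.48 (SE 0.07) for Sesn1.

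Of 41 axon guidance genes, 4 were lower (9.76%) and 1 higher (2.44%), near the 6.92% and 4.66% of all genes tested. The higher count was 4 without vehicle replicate 3 and 2 without DAPT replicate 2. Ntn1, the guidance ligand netrin 1, fell from 24.1, 24.3 and 24.9 CPM to 15.4, 15.0 and 14.4 CPM (log2 FC -0.71, SE 0.05, adjusted p = 1.6e-06, edgeR), while Robo1, a Slit receptor gene, rose (0.44 (SE 0.07)). Interferon-related genes split, with 2 of 20 higher and 3 lower. Ifit3 was at 4.30, 3.87 and 3.56 CPM with vehicle and 7.87, 8.80 and 7.14 CPM with DAPT (log2 FC 1.01, SE 0.15, adjusted p = 0.00065, edgeR), and Tap1, a peptide transporter of antigen presentation, at 8.74, 8.73 and 8.44 and 5.98, 6.10 and 6.56 CPM (log2 FC -0.47, SE 0.07, adjusted p = 0.00079, edgeR). In the PRC2 and REST list of 14, Ezh1 was higher (0.47 (SE 0.08)) and Rcor2 lower (-0.46 (SE 0.07)). Gfra1 was the lower member of 10 neurotrophin system genes (-0.38 (SE 0.06)). No call was made by edgeR in the Cajal-Retzius list (median 0.20). Among 10 ependymal and choroid plexus genes Dynlrb2 was higher (0.57 (SE 0.10)), a count of 1 that was 3 with the replicate block over all 12 libraries and 2 without vehicle replicate 1 or 3 or DAPT replicate 1 or 2.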
